A study of Homo sapiens with 34 samples.

Results

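Genes that carry only the name of a sequenced genomic clone, such as RP11-872D17.8, were followed through the cytokine-free haematopoietic differentiation of H1, a widely used line of human embryonic stem cells. A clone name is given to a locus that had no gene symbol when it was annotated. Of the 20255 genes in the table, 2522 carried a clone name, and 115 of these formed the group described here. They were chosen by measured values: the mean of log2(value + 1) over the 3 CD43+ samples was at least 2 higher than over the 3 CD43- samples on each of days 9, 12 and 16. CD43, encoded by SPN, is a surface sialomucin that marks committed haematopoietic cells. All 115 genes passed the filter on low values, which required 10 or more in at least 3 samples.

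All samples came from the same H1 line. Differentiation was started with BMP4 and VEGF to form mesoderm and went on with VEGF as the only growth factor, with no haematopoietic cytokine added. RNA of 34 samples was sequenced. There was 1 sample of undifferentiated cells, labelled as untreated, and 3 replicates of each of 11 populations: unsorted cells on days 0, 2 and 4, CD43- and CD43+ cells on days 6, 9 and 12, and on day 16 CD43-CD45- and CD43+/CD45+ cells, called CD43- and CD43+ below. The deposited values had been normalised for GC content and forced to a single distribution, so every sample summed to 17856940 with a median of 197 and 1292 genes at 0. A value therefore acts much like a rank, and the sequencing depth behind it is unknown. In these bulk populations a change in the share of cells that express a gene and a change in RNA per cell cannot be told apart.

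Most clone-named loci are long non-coding RNA genes. Such RNAs are often made at low levels and in few cell types, and many start on the opposite strand beside or inside a coding gene. Antisense and divergent transcripts near regulators of blood development have been described in many systems, and some clone names also belong to readthrough transcripts that join exons of neighbouring coding genes. Reads from an overlap can be given to a gene on either strand when counting ignores strand, and the strand setting was not given in the sources used here.

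Of the 115 genes, 113 had their identifier in GENCODE v29 (GRCh38), all at overlapping coordinates. That release calls 59 of them antisense, 40 lincRNA, 10 protein-coding, 3 processed transcripts and 1 a bidirectional promoter lncRNA. The exon length had a median of 1270 bases, from 348 to 12027. A coding gene was overlapped by 78 of the 115, on the opposite strand in 67 and on the same strand in 11. Of the 37 that overlapped none, 10 lay within 1 kb of the nearest coding gene and 7 lay farther than 100 kb away. The start lay within 1 kb of the coding start on the opposite strand in 18. Some exon bases were shared with a coding gene in 53, over 80% of them in 13, and none in 60. The 115 genes had 110 different nearest coding genes.

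Sequences are shown for 3 genes beside blood regulators whose exons shared no base with a coding gene, so that reads in them are not also reads of a coding exon. Each line gives the start of the longest GENCODE v29 transcript, up to 150 bases of its first exon in the direction of transcription, all in lower case because no part is marked. RP13-786C16.1 (chr11:33880643-33881800, plus strand, 1 exon) lies inside LMO2 on the opposite strand, and the stretch is chr11:33880643-33880792. RP11-830F9.6 (chr16:88939789-88951524, plus strand, 2 exons in this transcript) lies inside CBFA2T3 on the opposite strand, and the stretch is chr16:88939789-88939938. RP11-750H9.5 (chr11:47383148-47409190, minus strand, 4 exons in this transcript) overlaps SLC39A13 and ends 4572 bases upstream of SPI1, and the stretch is chr11:47408952-47409092.
RP13-786C16.1: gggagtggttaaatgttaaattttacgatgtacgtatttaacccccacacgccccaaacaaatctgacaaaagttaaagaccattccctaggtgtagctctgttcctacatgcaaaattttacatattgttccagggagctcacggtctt
RP11-830F9.6: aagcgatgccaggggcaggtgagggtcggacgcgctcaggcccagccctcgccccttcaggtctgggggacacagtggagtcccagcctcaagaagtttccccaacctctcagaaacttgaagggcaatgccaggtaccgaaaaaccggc
RP11-750H9.5: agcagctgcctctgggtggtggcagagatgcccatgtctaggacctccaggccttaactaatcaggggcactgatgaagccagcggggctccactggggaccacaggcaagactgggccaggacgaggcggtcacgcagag

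RefSeq promoter windows (GRCh38.p14, 250 bases before to 50 after the start) were found for 19 of the 115 genes, with the RefSeq start on the same strand within 1 kb. Letters that blood transcription factors are known to bind, and those of the TATA box, were searched on both strands. No pair of these motifs overlapped within the windows printed. The GATA letters AGATAA were in 2 of 19 windows (10.5%) and in 10.3% of all 35116 windows. The RUNX letters TGTGGT or TGCGGT were in 5 windows (26.3%), against 19.6% of all windows. The PU.1 letters GAGGAAGT were in 2 windows (10.5%), against 2.6%, and the TATA box letters TATAAA were in 0, against 11.5%. With 19 windows these shares are descriptions, and a match is not a binding site. The windows of AC020571.3 (RefSeq HECW2-AS1, chr2:196259774-196260073, plus strand), which holds the GATA letters at 2 places, and of RP4-800J21.3 (RefSeq RBM38-AS1, chr20:57393007-57393306, minus strand), which holds the PU.1 letters, are printed because both genes were called on day 6 below. Capitals mark the motif, read here from the other strand.
AC020571.3: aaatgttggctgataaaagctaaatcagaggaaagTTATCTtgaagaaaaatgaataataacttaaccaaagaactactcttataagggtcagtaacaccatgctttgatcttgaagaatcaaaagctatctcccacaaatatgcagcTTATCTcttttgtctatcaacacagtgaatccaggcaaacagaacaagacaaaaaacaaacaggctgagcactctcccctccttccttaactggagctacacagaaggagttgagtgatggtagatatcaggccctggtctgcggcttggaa
RP4-800J21.3: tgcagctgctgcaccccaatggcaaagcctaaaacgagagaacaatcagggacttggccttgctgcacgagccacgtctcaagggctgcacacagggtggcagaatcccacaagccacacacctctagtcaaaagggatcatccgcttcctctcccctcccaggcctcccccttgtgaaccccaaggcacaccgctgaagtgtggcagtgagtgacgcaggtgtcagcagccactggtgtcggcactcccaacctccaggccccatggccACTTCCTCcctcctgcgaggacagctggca

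The sort was checked with blood and stromal genes. SPN had values of 5979 to 8780 in the day 6 CD43+ samples and 19 to 49 in the CD43- samples. In later CD43- cells it had 18, 32 and 19 (day 9), 122, 120 and 235 (day 12), and 84, 328 and 122 (day 16). Its lowest later CD43+ value was 2338. PTPRC, the gene of CD45, had 4, 197 and 371 in day 12 CD43- cells against 12848, 8975 and 6920. On day 16 the summed value of 10 neutrophil marker genes was 8230 to 28590 in CD43- cells against 260930 to 328758. Some blood RNA was thus listed in CD43- cells of days 12 and 16. Of 10 erythroid marker genes 9 were called higher in CD43+ cells on day 6, with a summed value of 118323 to 133026 against 591 to 790, and of 11 mesenchymal marker genes 8 were called lower, with 59774 to 156484 against 202693 to 250510. Of 9 macrophage marker genes 1 was called higher on day 6 and 9 on day 16. The marker levels of the CD43+ cells moved with the day, and their part in the values below was not tested.

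The group sat low on the scale before sorting and in CD43- cells. The median over the 115 genes of the mean value was 3.33, 3 and 3 in the unsorted cells of days 0, 2 and 4. In CD43- cells of days 6, 9, 12 and 16 it was 2, 1.67, 1.67 and 3, and in CD43+ cells of those days it was 10.7, 26, 33.7 and 40. In any sample before sorting 58 of the 115 stayed under 10, and 9 reached 100 or more. In CD43+ cells 36 never reached 50, and RP11-872D17.8 alone passed 1000. The median of 33 over the day 9 to 16 CD43+ samples was well under the median of 197 that every sample shares over all genes.

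The values that chose the group are given as a description. The median difference between CD43+ and CD43- cells on the log2(value + 1) scale was 2.98, 3.52 and 3.27 on days 9, 12 and 16. Every CD43+ sample exceeded every CD43- sample in 113, 113 and 108 of the 115 genes, where 42.2%, 35.2% and 40.3% of all 19788 genes tested did so. The group's edge was not sharp. The genes just inside, AC068831.15, AC006547.13 and 1 other, had a smallest difference of 2.007, 2.013 and 2.015, and the 3 just outside, RP11-342M1.3 and 2 others, had 1.989, 1.992 and 1.992. AC068831.15, antisense to the mannosidase gene MAN2A2, entered on day 9 through a single sample, with values of 64, 0 and 0 in CD43+ cells against 0, 0 and 0.

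**Figure D1:**
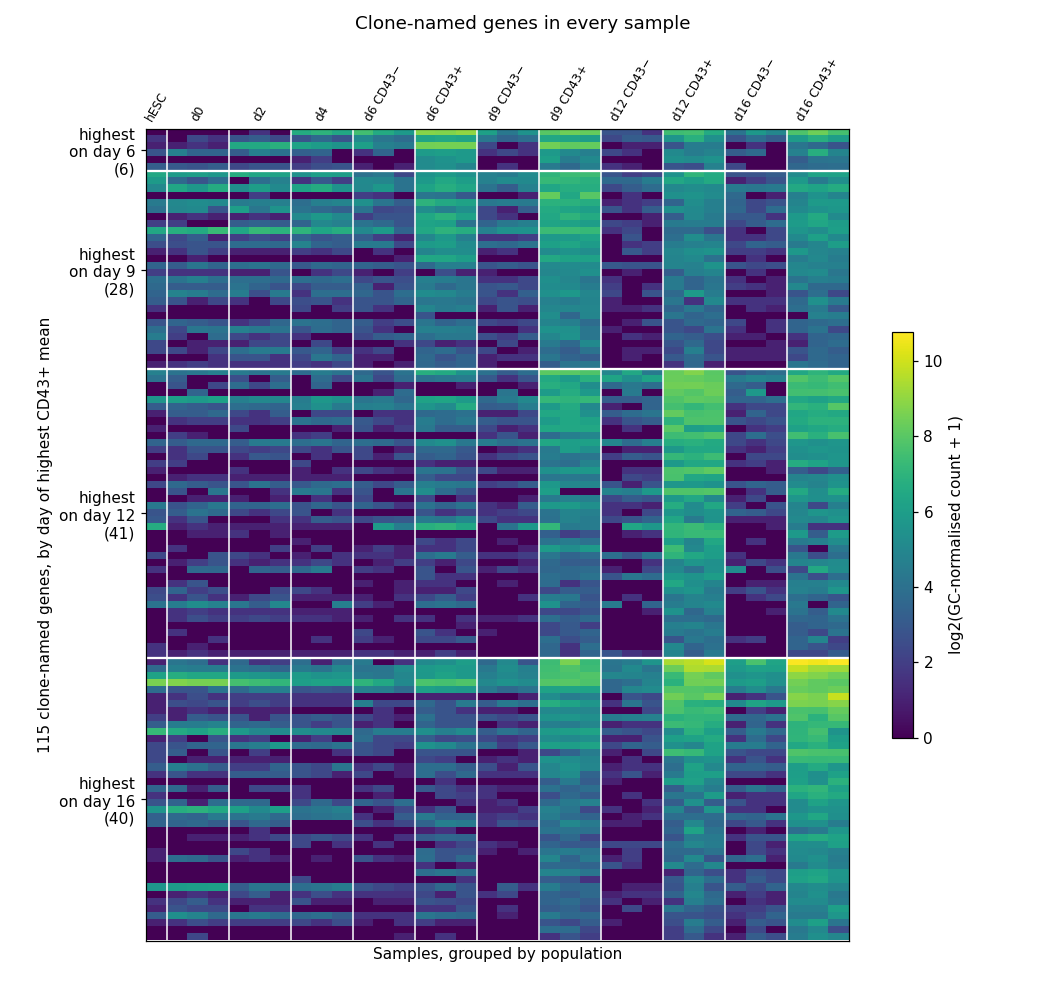
Values of the 115 clone-named genes (rows) in all 34 samples (columns), coloured by log2(GC-normalised count + 1) and grouped by the day on which the mean over the 3 CD43+ samples was highest. CD43- columns and those before sorting are dark for most genes, while 6, 28, 41 and 40 genes were highest in CD43+ cells on days 6, 9, 12 and 16.

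Day 6 was not used to choose the group and was tested with limma across all genes. A gene was called at a Benjamini-Hochberg adjusted p below 0.05 and a fold change above 4 on the log2(value + 1) scale. In CD43+ against CD43- cells 40 of the 115 genes were called higher, where 4.69% of all genes tested were (6.96% of the clone-named genes tested), and 1 was called lower, where 7.85% were. The median difference was 1.55 over the 115 genes, 0.46 over the clone-named genes tested and 0.14 over all genes tested. Of the 115, 106 differences were above 0, where 11206 of 19788 genes tested and 1567 of 2327 clone-named genes tested were. In 71 of the 115 every CD43+ sample exceeded every CD43- sample, where 33.9% of all genes tested did so. In 6 of the 40 all CD43- samples were listed at 0. Day 6 and the later days are separate samples of the same line and of the same kind of sort. Same-numbered day 6 samples were taken as paired, but this fit had no replicate term. With the replicate number as a block the count stayed at 40. A block fit of only these populations gave fewer calls, as listed in the section on processing. With a pseudocount of 10 in place of 1 the 40 became 10, and with the filter at 100 in place of 10 the count was 11 of 34 tested. The 4.69% belongs to the main setting. The share of all genes under these alternatives is not given, so their counts cannot be set against a background.

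**Figure D2:**
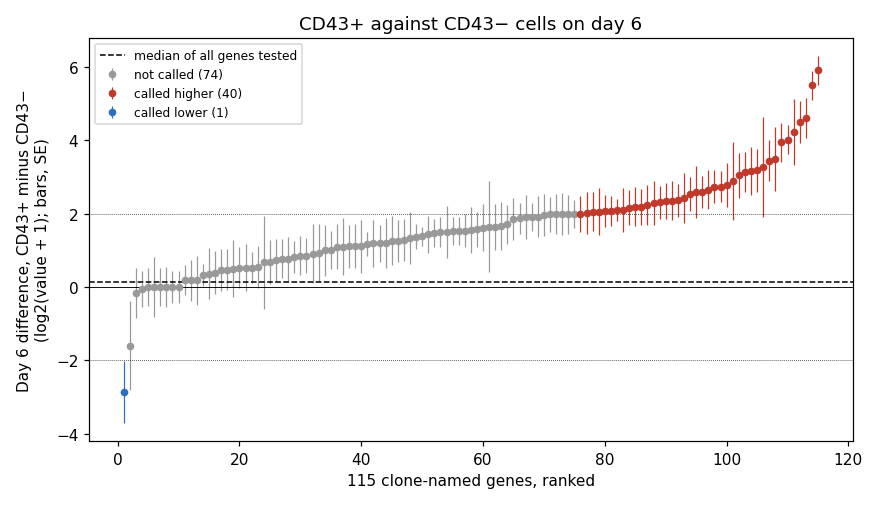
Difference between CD43+ and CD43- cells on day 6 for each of the 115 clone-named genes, ranked, on the log2(value + 1) scale, with 3 samples per population and bars for the limma SE. The dotted lines mark a fold change of 4, and the dashed line marks the median of all genes tested, 0.14. Of the 115, 40 genes (red) were called higher and 1 (blue) was called lower. Above 0 lie 106 points, where 11206 of 19788 genes tested were above 0.

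The largest fitted day 6 difference was that of RP13-786C16.1, which lies opposite LMO2, the gene of a bridging protein of the TAL1 complex that is needed for the first blood cells. Its values were 84, 81 and 62 in day 6 CD43+ cells and 0, 0 and 1 in CD43- cells, and it was at 0 or 1 in every sample before sorting. The groups did not overlap, and the difference was 5.91 (SE 0.39, n = 3 and 3, limma adjusted p = 3.33e-12). In later CD43+ cells it stood at 89, 72 and 70 (day 9), 28, 34 and 15 (day 12), and 22, 32 and 22 (day 16). LMO2 itself had 4718, 4544 and 4154 in day 6 CD43+ cells against 1700, 1096 and 514 (difference 2.18, SE 0.27, limma adjusted p = 2.4e-07). LMO2 was already present on day 4, at 516, 658 and 612, when the clone-named gene was listed at 0 in all 3 samples.

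RP11-830F9.6 lies opposite CBFA2T3, which encodes the corepressor ETO2. It was listed at 0 in all CD43- samples of days 6, 9, 12 and 16, and had 36, 44 and 55 in day 6 CD43+ cells (limma adjusted p = 1.18e-11, with no fold given against 0). CBFA2T3 had 1870, 1592 and 1821 against 58, 38 and 68 on day 6 (difference 5.02, SE 0.29, limma adjusted p = 2.48e-13). On day 4 CBFA2T3 stood at 670, 694 and 746 while the clone-named gene stood at 1, 3 and 0.

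RP1-18D14.7 lies opposite TAL1, the bHLH factor that specifies blood from mesoderm, and shared 20.9% of its exon bases with a coding gene. It was at 0, 2 and 0 on day 2 and at 98, 124 and 86 on day 4 (difference 6.15, SE 0.49, limma adjusted p = 9.69e-11). On day 6 it had 446, 426 and 499 in CD43+ cells and 182, 96 and 56 in CD43- cells (difference 2.19, SE 0.49, limma adjusted p = 0.000508). This day 6 call was lost without CD43- replicate 3, when the difference was 1.78. TAL1 followed the same course, with 13, 16 and 16 on day 2, 1837, 2431 and 1856 on day 4, and 6335, 5979 and 5760 against 1230, 883 and 582 on day 6 (difference 2.81, SE 0.42, limma adjusted p = 3.08e-06).

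AC020571.3 lies opposite HECW2, a ubiquitin ligase gene, and shared no exon base with a coding gene. Its values were 1, 2 and 1 on day 2, 34, 52 and 34 on day 4, and on day 6 84, 118 and 71 in CD43+ cells against 3, 6 and 6 in CD43- cells. It rose from day 2 to day 4 (difference 4.13, SE 0.53, limma adjusted p = 5.15e-07), fell from day 4 to the CD43- cells of day 6 (difference -2.79, SE 0.53, limma adjusted p = 0.000113) and was higher in CD43+ than in CD43- cells (difference 3.95, SE 0.53, limma adjusted p = 6.46e-07). HECW2 went from 202, 276 and 232 on day 2 to 848, 832 and 754 on day 4, so both stood higher on day 4 than on day 2. On day 6 the sorted populations differed in opposite directions for the pair: HECW2 had 263, 130 and 144 in CD43+ cells against 2220, 1164 and 368 in CD43- cells (difference -2.52, SE 0.51, limma adjusted p = 0.000161).

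Other large day 6 differences belonged to genes with PCDH7, RHOT1 and RBM38 as nearest coding genes. RP11-734I18.1 on chromosome 4, whose nearest coding gene PCDH7 was 850592 bases away, had 28, 38 and 38 in CD43+ cells and 0, 2 and 0 in CD43- cells (difference 4.61, SE 0.54, limma adjusted p = 8.65e-08). AC090616.2, antisense to the start of the mitochondrial GTPase gene RHOT1, had 36, 42 and 28 against 1, 0 and 1 (difference 4.50, SE 0.58, limma adjusted p = 3.77e-07). RP4-800J21.3, antisense to RBM38, which encodes an RNA-binding protein, had 60, 64 and 54 against 2, 10 and 0 (difference 4.23, SE 0.90, limma adjusted p = 0.000315). All 3 groups of CD43+ values lay above their CD43- values.

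At the other end, RP13-890H12.2, antisense to HEXIM2, was the gene called lower, with 0, 0 and 2 in day 6 CD43+ cells and 10, 6 and 14 in CD43- cells (difference -2.86, SE 0.84, limma adjusted p = 0.00578). With a pseudocount of 10 the difference was -0.89 and the call was lost. It had 12, 20 and 26 against 1, 2 and 0 on day 9, so the direction in the day 6 samples was opposite to that in the samples that chose it. CTD-2207O23.3, a transcript that overlaps ARHGEF18 on the same strand, was listed at 0 in all day 6 CD43+ samples and had 0, 1 and 13 in CD43- cells. It had 283, 235 and 330 in day 12 CD43+ cells. AC137932.6, antisense to ANKRD11, had 8, 4 and 5 against 14, 4 and 4 on day 6 (difference -0.16, SE 0.68, limma adjusted p = 0.873).

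The day 6 calls were spread over positions: 19 of the 53 genes that shared exon bases with a coding gene and 19 of the 60 that shared none were called higher, as were 10 of the 37 that overlapped no coding gene.

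Compared with the unsorted cells of day 4, 32 of the 115 genes were called higher in day 6 CD43+ cells, where 6.8% of all genes tested were, and 2 were called lower, where 7.73% were. Of the clone-named genes tested, 13.8% were called higher and 5.5% lower. In day 6 CD43- cells 3 were higher than on day 4 (background 4.94%, and 7.74% of the clone-named genes tested) and 5 lower (background 2.77%, and 4.17%). The count of 3 became 6 without day 4 replicate 2 or without CD43- replicate 2, and 5 without CD43- replicate 3. These comparisons share the day 4 samples. Between day 2 and day 4, 3 rose, namely RP1-18D14.7, AC020571.3 and AC147651.4, and 2 fell (background 4.97% and 4.53%). With a pseudocount of 10 the difference of AC147651.4 was 0.94 and its call was lost. From day 0 to day 2, 3 rose and 2 fell (background 4.4% and 3.48%).
One of those that rose early was AC007405.8, antisense to GAD1, the gene of the enzyme that makes GABA. It went from 1, 2 and 1 on day 0 to 90, 90 and 113 on day 2 (difference 5.42, SE 0.55, limma adjusted p = 1.08e-08). In day 6 CD43+ cells it had 355, 366 and 368 against 66, 25 and 20 (difference 3.45, SE 0.55, limma adjusted p = 8.28e-06). By day 12 the CD43+ values were 6, 22 and 22. GAD1 had 4962, 4292 and 5040 against 998, 870 and 554 on day 6 (difference 2.60, SE 0.50, limma adjusted p = 0.000102), and 56.2% of the exon bases of AC007405.8 were shared with a coding gene.

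Within CD43+ cells the genes reached their highest mean on different days, and 6, 28, 41 and 40 of them did so on days 6, 9, 12 and 16. All 3 samples of that day exceeded all other CD43+ samples in 3, 5, 15 and 17 of these. The days are described without a test, because days 9 to 16 chose the group. RP11-797H7.5, antisense to the zinc-finger gene ZNF273, was high on day 9, at 303, 88 and 254, and at 42, 45 and 36 on day 12. RP11-1334A24.6, antisense to PDLIM7 and also overlapping DOK3, stood at 213, 228 and 276 on day 12. It stood at 42, 52 and 53 on day 9 and at 8, 4 and 9 on day 16. RP11-195M16.3, upstream of CSF1, the macrophage growth factor gene, stood at 22, 40 and 30 on day 16 and at 7 or less in all earlier CD43+ samples. CSF1 itself was lower in CD43+ cells on day 16, at 264, 282 and 164 against 919, 1138 and 1121 in CD43- cells.

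The highest levels belonged to RP11-872D17.8, a gene that GENCODE v29 calls protein-coding and that runs over SLC43A3 and PRG2 on the same strand. PRG2 encodes the major basic protein of eosinophil granules. Of its 2242 exon bases, 1349 were shared with SLC43A3 and 791 with PRG2. It had 34, 40 and 63 in day 6 CD43+ cells against 20, 0 and 2 (difference 3.50, SE 0.87, limma adjusted p = 0.00145), a call that was lost in a fit of only these populations (limma adjusted p = 0.0532) and with a pseudocount of 10 (difference 1.83). It then had 682, 799 and 1114 on day 12 and 1700, 1478 and 1752 on day 16 in CD43+ cells. PRG2 had 90700, 37190 and 48061 in the same day 16 samples, and SLC43A3 had 1596, 1555 and 1818. The next highest was RP11-620J15.3, antisense to ATP23, which shared no exon base with a coding gene, with 904, 625 and 612 on day 16 CD43+ cells against 55, 70 and 69.

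A set of genes beside myeloid regulators and receptors was low on day 6 and higher later. Those named in this paragraph and the next were chosen after their values were seen. CTD-2540B15.11 is antisense to CEBPA, the master factor of granulocyte fate, and all of its exon bases were shared with a coding gene. Its CD43+ values were 0, 0 and 1 (day 6), 108, 86 and 38 (day 9), 344, 358 and 318 (day 12), and 163, 146 and 174 (day 16). CEBPA had 152, 62 and 110 in day 6 CD43+ cells and 1180, 1226 and 1426 on day 9. RP11-84D1.1, which lies opposite RUNX3, a runt-domain factor, and shared no exon base, was listed at 0 in all CD43- samples and in the day 6 CD43+ samples, and had 11, 2 and 14 on day 9 and 32, 10 and 15 on day 12 in CD43+ cells.
RP11-750H9.5, the gene upstream of SPI1, which encodes the myeloid and lymphoid factor PU.1, had CD43+ values of 8, 6 and 2 (day 6), 32, 32 and 30 (day 9), 210, 151 and 178 (day 12), and 202, 196 and 295 (day 16). SPI1 was at 1553, 1247 and 1332 on day 6 and 8050, 6442 and 7746 on day 16. SLC39A13, the zinc transporter gene that RP11-750H9.5 overlaps, had 830, 814 and 874 in day 16 CD43+ cells against 1302, 1305 and 1334.

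Receptor genes of myeloid cells were also overlapped. AC018755.18 runs over SIGLEC5 and SIGLEC14, sialic acid receptors of granulocytes and monocytes, on the same strand and shared 96.2% of its exon bases with a coding gene. It had 1, 1 and 1 on day 6, 346, 258 and 380 on day 12 and 445, 390 and 938 on day 16 in CD43+ cells. RP4-576H24.4, over SIRPB1, shared 84.2% and reached 44, 11 and 26 on day 12. RP11-455F5.5, antisense to CORO1A, the leukocyte actin regulator, shared 66.7% and went from 0, 2 and 0 on day 6 to 68, 42 and 118 on day 16 in CD43+ cells, while CORO1A went from 641, 414 and 310 to 8793, 8964 and 10075. In these genes the values of the clone-named and the coding gene may hold the same reads, and this was not tested.

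The nearest coding genes were then examined as a group. All 107 of them that were in the table were tested, and 77 of these overlapped a clone-named gene. In CD43+ against CD43- cells on day 6, 15 of the 107 were called higher and 7 lower, where 4.26% and 8.69% of the 16207 protein-coding genes tested were. Without CD43- replicate 3 the 15 became 10. Split by position, 14 of the 77 overlapping genes and 1 of the 30 that did not overlap were called higher. Counted by pair, the neighbour was called higher in 11 of 53 where the clone-named gene shared exon bases with a coding gene. Of the 57 pairs with no shared base it was called higher in 4. The part of shared reads in these counts was not tested. On days 9, 12 and 16, whose samples chose the group, 29, 36 and 31 of the 107 were called higher (background 7.79%, 10.3% and 11%) and 11, 9 and 10 lower (background 14%, 15.9% and 15.1%), and these counts are a description. Of the 30 that did not overlap, 3, 5 and 4 were called higher on these days. On all 3 days 23 were called higher, against 5.04% of protein-coding genes, and 8 were called lower, against 1529 of the 16207. On these days 53 of the 107 were never called, against 10539 of the 16207.

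Some neighbours went the other way. IL32, a cytokine gene, had 358, 281 and 376 in day 16 CD43- cells and 28, 24 and 30 in CD43+ cells, while RP11-473M20.9 on its opposite strand, with no exon base shared, had 22, 38 and 19 against 311, 284 and 326. HECW2 was called lower on days 6, 9, 12 and 16. TET2, the DNA demethylase gene, instead stood higher in CD43+ cells by day 16, as did the clone-named gene beside it. TET2 had 754, 744 and 816 in day 6 CD43+ cells against 750, 762 and 678. On day 16 it had 5412, 4330 and 4963 against 486, 780 and 643. AC004069.2, 5256 bases upstream of TET2 on the opposite strand, had 2, 1 and 1 in CD43+ cells on day 6 and 101, 76 and 49 on day 16.

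Across the 33 replicated samples the clone-named gene and its nearest coding gene had a median Pearson r of 0.54 over 112 pairs, from -0.90 to 0.96, on the log2(value + 1) scale. The points share libraries, populations and the common distribution, so r describes these samples only. Among the points are the sorted samples whose values chose the clone-named genes. In those samples each clone-named gene was higher in CD43+ cells by choice. There r partly reports whether the coding gene also differed between CD43+ and CD43- cells. The median was 0.74 in the 53 pairs whose clone-named gene shared exon bases with a coding gene, the nearest or another overlapping one. It was 0.13 in the 23 that overlapped without a shared base and 0.23 in the 34 that did not overlap. The highest was that of RP1-18D14.7 with TAL1, at 0.96. Without any shared exon base it was 0.94 for RP11-347P5.1 with the kinase gene STK17B, 0.87 for RP11-84D1.1 with RUNX3, 0.84 for RP11-830F9.6 with CBFA2T3 and 0.69 for RP13-786C16.1 with LMO2. The lowest was -0.90, for AC147651.4 with PRKAR1B, a regulatory subunit gene of protein kinase A.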

How the data were processed

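Total RNA of 34 samples was sequenced by 2 companies; the labels do not say which samples went to which, so no batch term was possible. Per the labels and the study's methods, the authors aligned reads (the submitters' processing notes name bcl2fastq, STAR 2.7, Bowtie2, RSEM and hg38), estimated counts per gene against an Ensembl annotation and normalised them for GC content with EDASeq. The deposited values are therefore whole-number scores, not raw counts. Sorted values were identical in all samples (100% of rows), which removes depth and holds every gene to a shared distribution; no counting interval can be given, and changes in total RNA are not visible. The methods describe the replicates as independent biological experiments.

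The test was limma 3.58.1 (R 4.3.3, trend, 33 replicated samples fitted together, no replicate term) on log2(value + 1). It covered the 19788 of 20255 genes that reached 10 in 3 or more samples. Calls needed a Benjamini-Hochberg adjusted p below 0.05 over all genes tested and a fold change above 4. The fit was tested on simulated data. The members and lists were chosen with earlier results of these data known, and the rule, comparisons, named-gene rule (highest level, largest and smallest day 6 differences, earliest, edge of the threshold, days of the peak, and neighbours in marker lists) and alternatives were written down on that basis. No test was made of days 9, 12 and 16 for members.

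Nearest coding genes came from GENCODE v29 (GRCh38), where 20148 identifiers were found; among overlapping genes the largest overlap was taken. Promoter windows came from RefSeq. The GC percent of each gene, as deposited by the authors, was not part of any test. To check pairing, each sample's deviation from the mean of its population was correlated between the CD43+ and CD43- cells with the same replicate number. The r was 0.198, 0.109 and 0.199 on day 6 and -0.015 to 0.108 later, and only on day 6 was it over 0.1 for every replicate number, which was taken as pairing. Unless another fit is named, the values printed come from the fit without a replicate term, and the fit with the replicate number as a block was an alternative. The day 6 SE and adjusted p values therefore leave this pairing out.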

Additional observations from a re-analysis of the deposited data

How the results depend on the processing

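The size of the group depended on the pseudocount and the threshold: 115 genes became 204 with a pseudocount of 0.1, 16 with 10, 470 with a threshold of 1, 34 with a threshold of 3, 40 when day 6 was required too, and 108 to 129 when 1 replicate was left out. On day 6, the 40 genes called higher became 10 with a pseudocount of 10, 11 (of 34 tested) with a value of at least 100 in 3 samples, 66 with a fold change above 2, and 30 to 48 with 1 replicate left out. For day 4 against day 2, the 3 became 7 with a pseudocount of 0.1 and 3 to 4 with 1 replicate left out. For day 2 against day 0, the 3 became 1 with a pseudocount of 10, 1 with the filter of 100, 7 with a fold change above 2, and 2 to 4. For day 6 CD43+ against day 4, the 32 became 9, 15 and 49 under these alternatives, and 30 to 34. For day 6 CD43- against day 4, the 3 became 7 with a pseudocount of 0.1, then 0, 1 and 9, and 3 to 6. The causes of these shifts were not tested. All background shares given above belong to the main setting, so the counts under alternatives, here and in the next paragraph, have no background beside them.

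Neighbouring coding genes called higher on day 6, 15, became 9 with a pseudocount of 10, 30 with a fold change above 2, 1 among those without overlap, and 10 to 16 with 1 replicate left out. On day 9, 29 became 56 with a fold change above 2, 3 without overlap, and 28 to 30. On day 12, 36 became 5 without overlap and 32 to 35. On day 16, 31 became 52, then 4, and 30 to 33. With the replicate block the counts stayed at 40 and 15 on day 6, and the fit of only these populations with the block gave 36 and 14. In the full fit the block ended no named call. The day 6 call of RP11-872D17.8 was lost when only these populations were fitted (limma adjusted p = 0.0532 without the block, 0.0799 with it). Over the named genes' other alternatives no called difference reversed its direction. AC137932.6, which was not called on day 6, had 8, 4 and 5 in CD43+ cells against 14, 4 and 4. Its small negative difference rested on the 14 of CD43- replicate 1, and without that sample the sign was reversed. A limit is the level: 36 of the 115 genes never reached 50 in CD43+ cells, and the depth is unknown.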

Other observations

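The single sample of undifferentiated cells entered no comparison. Of the 115 clone-named genes 36 were listed at 0 in it and 29 had 10 or more. The highest was CTD-3088G3.8, which GENCODE v29 calls protein-coding and which lies opposite RMI2, a gene of the complex that dissolves DNA crossovers, at 394. It stood at 422, 380 and 381 on day 0, 64, 74 and 70 on day 4, and 358, 280 and 262 in day 16 CD43+ cells against 58, 64 and 41 in CD43- cells. AC004381.6, annotated as the exonuclease gene REXO5, stood at 72 in the undifferentiated sample, 104, 88 and 88 on day 0 and 490, 424 and 337 in day 16 CD43+ cells. The genes beside LMO2 and CBFA2T3, by contrast, were listed at 0 in the undifferentiated sample.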
